A study of Chrysemys picta and Apalone spinifera with 20 samples.

Results

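EGR1, FOSB, ATF3 and NR4A1 are immediate early genes, and their counts were followed through embryos of a turtle with temperature-dependent sex determination (TSD) and of one with genotypic sex determination (GSD). The 4 genes were chosen by name, from among 13942 entries of the count tables, after their counts in these same libraries had been seen, so every value of theirs is given as a description and carries no test. Their entries are XM_005282222 for EGR1, XM_005313510 for FOSB, XM_005278897 for ATF3 and XM_005308394 for NR4A1. The symbol of ATF3 comes from a gene description supplied with the study, and the other symbols from RefSeq accessions (assembly ASM1138683v2, used for names alone).

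Immediate early genes are transcribed within minutes of a stimulus, mostly without a need for new protein, because most factors that switch them on already sit in the cell. Growth factor signals reach them through the ERK kinases and serum response factor, and stress signals through other kinases and ATF4. Their products are mostly transcription factors or short-lived brakes on the same signals, and their mRNAs decay fast, so their levels can change quickly.

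RNA-seq was performed on Chrysemys picta, the painted turtle (TSD), and on Apalone spinifera, a softshell turtle (GSD). Eggs from a turtle farm were incubated at 26 °C, which produces males in Chrysemys, or at 31 °C, which produces females, and embryos were matched by stage rather than by days of incubation. The youngest samples, of stage 9, are trunks, those of stages 12 and 15 are adrenal-kidney-gonad complexes (AKG), and those of stages 19 and 22 are gonads, so tissue and stage cannot be told apart. Each of the 20 libraries is 1 pool per species, temperature and stage, and no pool was repeated. Pools held fewer embryos in Apalone than in Chrysemys, and the sex of the Apalone embryos was unknown.

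Library totals ran from 11610098 to 24606646 counts in Chrysemys and from 5544730 to 9501484 in Apalone. Levels below are scaled counts, that is, counts divided by a factor that sets the upper quartile of the 10 libraries of a species equal, and a ratio is the 31 °C level over the 26 °C level of 1 stage. Intervals are exact 95% intervals on read pairs and cover counting error only, not differences between pools. Apalone reads were counted on Chrysemys genes and scaled apart, so levels are not on 1 scale between the species, and levels of different genes are not compared. These are bulk samples, in which fewer cells of a type and less RNA per cell cannot be told apart.

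In Chrysemys the 4 genes had higher levels at 31 °C in 19 of 20 comparisons of gene and stage, and at least 2-fold higher in 12 of them. The largest ratio of each gene was at an early stage, 9 for EGR1 and FOSB and 12 for ATF3 and NR4A1. In Apalone the ratios had no common direction: 7 of 15 were above 1, with 5 at least 2-fold higher and 2 at least 2-fold lower at 31 °C. FOSB is left out of the Apalone count because it was close to undetected there. The interval of the ratio lay above 1 in 13 of the 20 Chrysemys comparisons and below 1 in 0, against 5 above and 3 below among the 15 in Apalone. Of all Chrysemys genes with a mean of at least 20 counts per library, 50.3% to 54.0% were higher at 31 °C, by stage. In Apalone the share was 49.2% to 55.3%. At each stage the 4 genes share the same 2 libraries, so the comparisons are not independent.

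**Figure D1:**
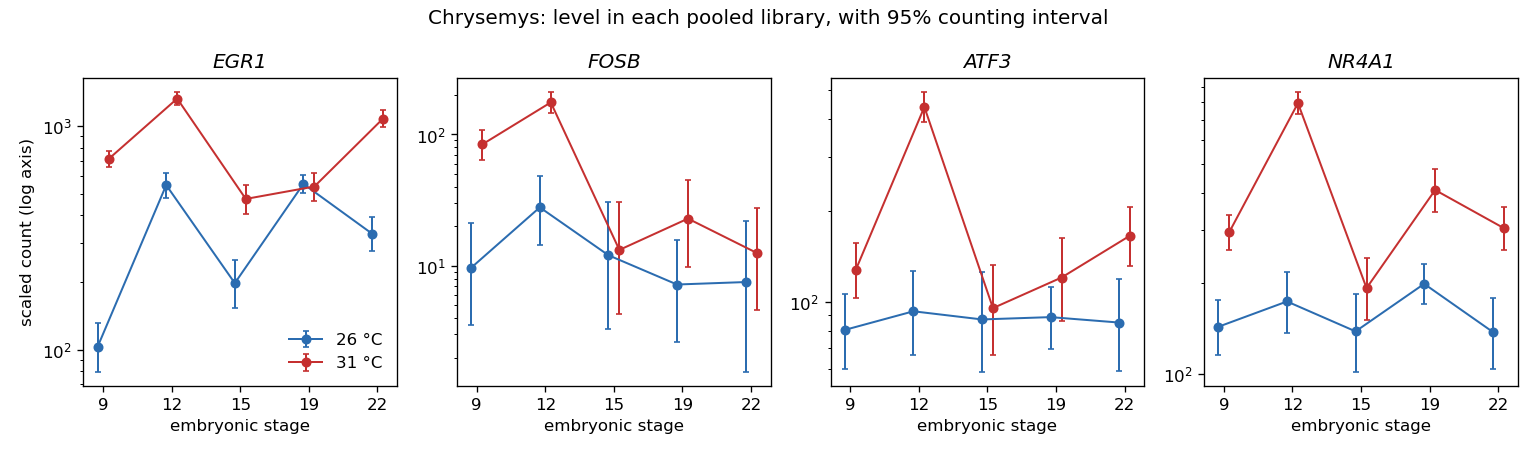
Scaled counts of EGR1, FOSB, ATF3 and NR4A1 in the 10 Chrysemys libraries (log axis) against embryonic stage, blue for 26 °C and red for 31 °C. Each point is 1 pooled library and bars are 95% counting intervals. All 4 genes are highest in the 31 °C library of stage 12, with scaled counts of 1330 for EGR1, 175 for FOSB, 440 for ATF3 and 795 for NR4A1.

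EGR1 encodes a zinc finger transcription factor and is a standard readout of ERK signalling. In Chrysemys its scaled counts at 26 °C, from stage 9 to stage 22, ran 103, 545, 199, 552 and 331. The warm libraries had 714, 1330, 473, 537 and 1082 in the same order. The 31 °C library was thus the higher one at every stage but 19, where the levels were nearly equal, and the 26 °C trunk stood lowest of all.

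The EGR1 ratio was 6.92 at stage 9 (interval 5.33 to 9.12), 2.44 at stage 12 (2.11 to 2.83) and 2.38 at stage 15 (1.79 to 3.21). It was 0.973 at stage 19 (0.817 to 1.16) and 3.27 at stage 22 (2.70 to 3.99). On the log2 scale, here and below with 1 added to each scaled count, the mean over stages was 1.40 ± 1.01 (SD, n = 5 stages). At 26 °C the level went up 5.29-fold from stage 9 to 12, while at 31 °C it went up 1.86-fold (interval 1.67 to 2.08), from a start that was already high.

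FOSB encodes a partner of JUN proteins in the AP-1 transcription factor, and its counts were the lowest of the 4. At 26 °C its raw counts in Chrysemys from stage 9 to stage 22 were 12, 24, 8, 12 and 6, which scale to 9.67, 27.9, 12.0, 7.20 and 7.52. At 31 °C the raw counts were 124, 248, 10, 16 and 12, which scale to 83.9, 175, 13.2, 22.9 and 12.6. FOSB was therefore well above its base level in the warm trunk and the warm stage 12 AKG, and near it in the other 8 libraries.

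The FOSB ratio was 8.68 at stage 9, with a wide interval of 3.77 to 24.6, and 6.30 at stage 12 (3.48 to 12.5). At stages 15, 19 and 22 it was 1.10, 3.18 and 1.67, and each of these intervals includes 1. From stage 12 to stage 15 the level at 31 °C changed to 0.0753 of what it had been (interval 0.0240 to 0.180), the steepest step of any of the 4 genes in Chrysemys. Levels at stages 15 to 22 rest on 6 to 16 counts per library, so smaller differences were not detectable at this depth.

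ATF3 encodes a stress-induced member of the ATF and CREB family that lies downstream of ATF4 in mammals. Its 26 °C level in Chrysemys was flat, at 80.6, 92.8, 87.3, 88.8 and 85.2 scaled counts from stage 9 to stage 22. The warm libraries had 127, 440, 95.1, 120 and 165 in the same order. All 5 libraries at 31 °C were above all 5 at 26 °C, a pattern that 30 of 11711 genes with a mean of at least 20 counts per library had, or 0.256% of them. ATF3 was chosen with these values known, so this share is a description and cannot tell whether temperature set the order. The gap was narrow, since the lowest 31 °C level was 95.1 and the highest 26 °C level 92.8.

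The ATF3 ratio was 1.58 at stage 9 (interval 1.11 to 2.27), 4.74 at stage 12 (3.40 to 6.76) and 1.94 at stage 22 (1.28 to 2.99). At stages 15 and 19 it was 1.09 and 1.35, with intervals that include 1. Only at stage 12 did the ratio pass 2, and the stage 12 level at 31 °C was 2.66 times (interval 2.07 to 3.45) that of the next highest library, stage 22 at 31 °C.

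NR4A1 encodes an orphan nuclear receptor, which in mammals is induced by pituitary hormones in steroid-making cells. The cool Chrysemys libraries had 143, 174, 138, 199 and 138 scaled counts from stage 9 to stage 22. The warm ones had 297, 795, 193, 409 and 305. The groups overlapped by a single library, since stage 15 at 31 °C lay below stage 19 at 26 °C.

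The NR4A1 ratio was 2.07 at stage 9 (interval 1.61 to 2.68), 4.57 at stage 12 (3.58 to 5.89), 2.05 at stage 19 (1.63 to 2.58) and 2.22 at stage 22 (1.61 to 3.08). At stage 15 it was 1.39, and the interval of 0.951 to 2.06 includes 1. Its log2 ratios varied least of the 4 genes, with a mean of 1.18 ± 0.62 (SD, n = 5 stages), against 0.88 ± 0.82 for ATF3 and 1.59 ± 1.23 for FOSB.

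**Figure D2:**
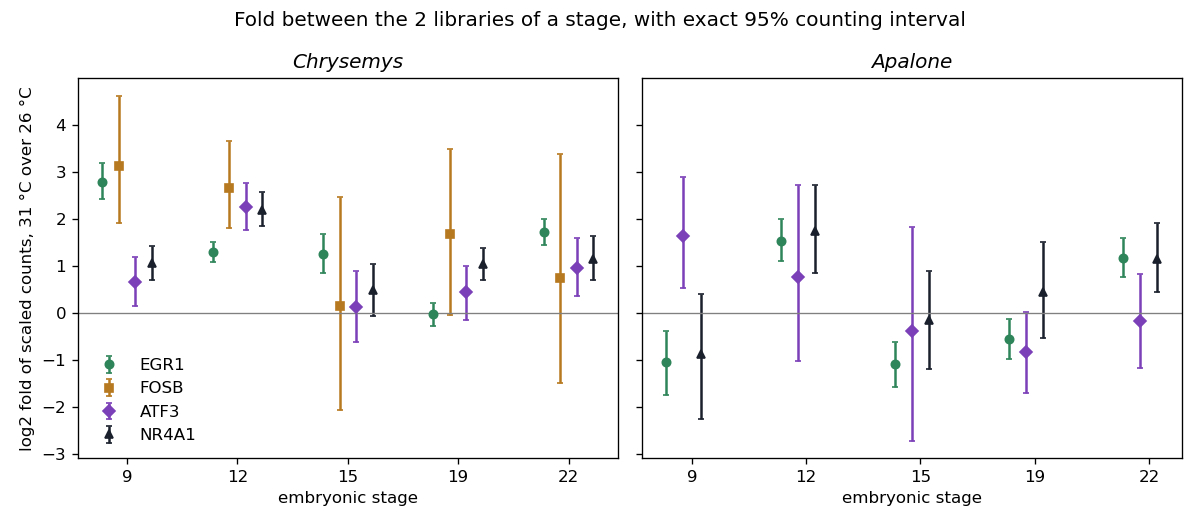
Log2 fold of the scaled counts, 31 °C over 26 °C, at each stage in Chrysemys (left) and Apalone (right), with exact 95% counting intervals. FOSB is drawn for Chrysemys only. At Chrysemys stage 12 all 4 points lie above 1 on this axis, from 2.44-fold for EGR1 to 6.30-fold for FOSB, while in Apalone the points lie on both sides of 0.

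The order of levels among Chrysemys libraries shows how far the warm stage 12 AKG stood out. For EGR1 the 31 °C libraries of stages 12, 22 and 9 came first, each above the next beyond counting error. The next 4 libraries, from stage 19 at 26 °C to stage 15 at 31 °C, had neighbours whose ratios include 1, and the last 3 were the 26 °C libraries of stages 22, 15 and 9. For FOSB the warm stages 12 and 9 stood above the rest, and the remaining 8 libraries had no step between neighbours beyond counting error. For ATF3 the only such step was below stage 12 at 31 °C. For NR4A1 stage 12 at 31 °C was 1.95 times (interval 1.62 to 2.35) stage 19 at 31 °C, and the 4 libraries at 31 °C other than stage 15 came before all those at 26 °C.

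Across the 10 Chrysemys libraries the levels of the 4 genes moved together to different degrees. Pearson's r of the log2 levels was 0.92 for ATF3 with NR4A1, 0.79 for FOSB with each of ATF3 and NR4A1, 0.77 for EGR1 with NR4A1, 0.73 for EGR1 with ATF3 and 0.59 for EGR1 with FOSB. Without the 31 °C libraries of stages 9 and 12, the values were 0.81 for ATF3 with NR4A1 and 0.30 to 0.46 for the 3 combinations with FOSB, so the likeness of FOSB to the others rests on those libraries. The points share stages, temperatures and scaling factors, and the values are descriptions.

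After stage 12 the 31 °C levels in Chrysemys were lower again. From stage 12 to stage 15, both AKG, the level at 31 °C changed to 0.356 of its stage 12 value for EGR1, 0.216 for ATF3 and 0.243 for NR4A1. At 26 °C the same step was 0.364 for EGR1, while ATF3 (0.940) and NR4A1 (0.795) had intervals that include 1. In the gonads EGR1 at 31 °C then went up 2.01-fold from stage 19 to stage 22 (interval 1.70 to 2.39), when at 26 °C it went to 0.599 of its value (0.490 to 0.729).

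In Apalone the deposited counts are lower and the error larger. EGR1 had 99.9, 92.3, 319, 246 and 158 scaled counts at 26 °C from stage 9 to stage 22, and 48.1, 268, 149, 167 and 356 at 31 °C. The warm library was thus higher at stages 12 and 22 and lower at stages 9, 15 and 19. The ratio was 0.482 at stage 9 (interval 0.298 to 0.764), 2.90 at stage 12 (2.14 to 3.96), 0.467 at stage 15 (0.332 to 0.650), 0.677 at stage 19 (0.506 to 0.905) and 2.25 at stage 22 (1.70 to 3.01), so each of the 5 lay away from 1 by more than counting error.

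**Figure D3:**
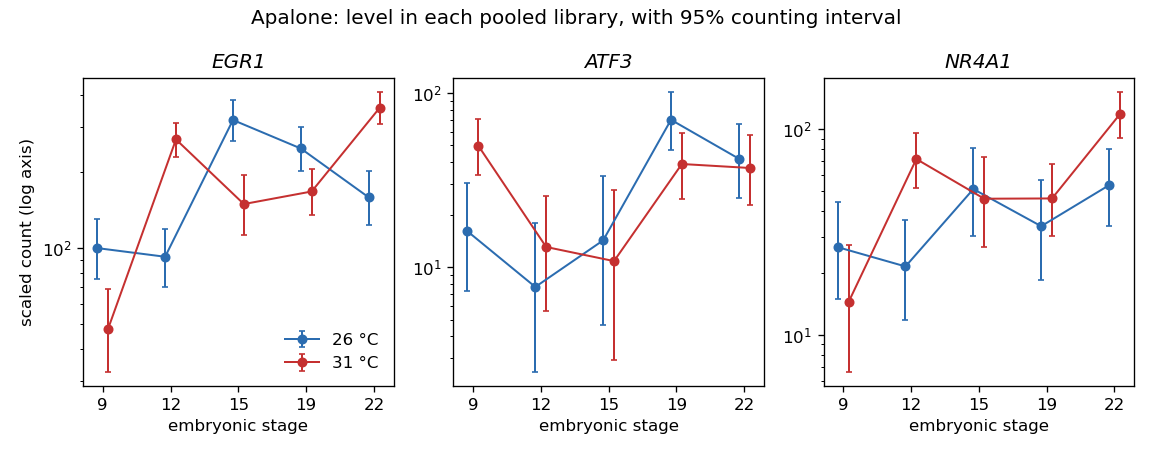
Scaled counts of EGR1, ATF3 and NR4A1 in the 10 Apalone libraries (log axis) against embryonic stage, blue for 26 °C and red for 31 °C, 1 pooled library per point, with 95% counting intervals. The 26 °C and 31 °C lines cross for each gene: EGR1 is higher at 31 °C at stages 12 and 22, and ATF3 at stages 9 and 12.

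NR4A1 followed a course close to that of EGR1 in Apalone. The cool libraries had 26.8, 21.5, 51.3, 33.8 and 53.5 scaled counts, and the warm ones 14.4, 71.8, 46.0, 46.2 and 119. The ratio was 3.33 at stage 12 (interval 1.79 to 6.58) and 2.22 at stage 22 (1.36 to 3.74), and at stages 9, 15 and 19 its interval includes 1. Pearson's r of EGR1 with NR4A1 over the 10 Apalone libraries was 0.88.

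ATF3 did not share that course. The cool libraries had 16.1, 7.70, 14.2, 70.1 and 41.9 scaled counts and the warm ones 49.7, 13.0, 10.8, 39.1 and 37.1, so ATF3 was low in all 4 AKG libraries and higher in all 4 gonad libraries. The ratio was 3.10 at stage 9 (interval 1.44 to 7.40), where EGR1 had one below 1, and at the other 4 stages its interval includes 1. Its r over the 10 libraries was 0.03 with EGR1 and 0.01 with NR4A1. Without the 31 °C libraries of stages 9 and 12 these were 0.50 and 0.41, so the low values rest on those libraries.

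FOSB had 0 counts in 9 of the 10 Apalone libraries, which allows up to 5.68 to 10.5 scaled counts by the exact interval on read pairs, and 2 counts (1 read pair) in the stage 12 library at 31 °C. No ratio is given for it. Whether FOSB is low in Apalone or its reads were not matched to the Chrysemys gene was not tested.

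Calls over the whole table give the background at each stage. To be called at a stage, a gene needed at least a 2-fold ratio and a Benjamini-Hochberg adjusted p under 1e-10 in Fisher's exact test (two-sided, on read pairs). With 1 library per temperature that test compares libraries and not temperatures. From stage 9 to stage 22, the share of all Chrysemys genes called higher at 31 °C was 1.98%, 0.146%, 2.09%, 4.09% and 3.73%, and the share called lower 1.29%, 0.262%, 0.618%, 1.99% and 2.56%. In Apalone 0.0171%, 0.151%, 0.793%, 0.787% and 1.38% were called higher, and 0.0856%, 0.0671%, 0.793%, 1.46% and 0.633% lower. The 20 genes called higher at Chrysemys stage 12 include the 4, which were chosen with these values known, so no call of theirs is read as a test.

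The split of higher against lower calls depends on the scaling. From the first to the last Chrysemys stage it was 271 to 177, 20 to 36, 284 to 84, 563 to 273 and 509 to 349. With library totals it was 97 to 512, 37 to 25, 399 to 58, 257 to 865 and 263 to 856. With TMM factors, edgeR's trimmed mean scaling, it was 222 to 225 at stage 9, 26 to 30 at stage 12 and 420 to 437 at stage 19. In Apalone library totals turned 93 to 93 into 125 to 68 at stage 15 and 94 to 174 into 134 to 138 at stage 19. Under library totals the median over all genes of the log2 ratio was -0.20, 0.11, 0.15, -0.27 and -0.32 at the 5 Chrysemys stages and 0.13 at Apalone stage 19, where upper-quartile scaling gave 0.06, 0.00, 0.03, 0.02, 0.04 and 0.02.

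Among 11711 Chrysemys genes with a mean of at least 20 counts per library, the stage 12 log2 ratio ranked 17 from the top for FOSB, 23 for ATF3, 25 for NR4A1 and 129 for EGR1. At stage 9 FOSB ranked 19 and EGR1 26, with NR4A1 at 616 and ATF3 at 1672. A scaling factor moves all ratios of a stage alike apart from the added count, and the ranks of low genes carry a large counting error.

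**Figure D4:**
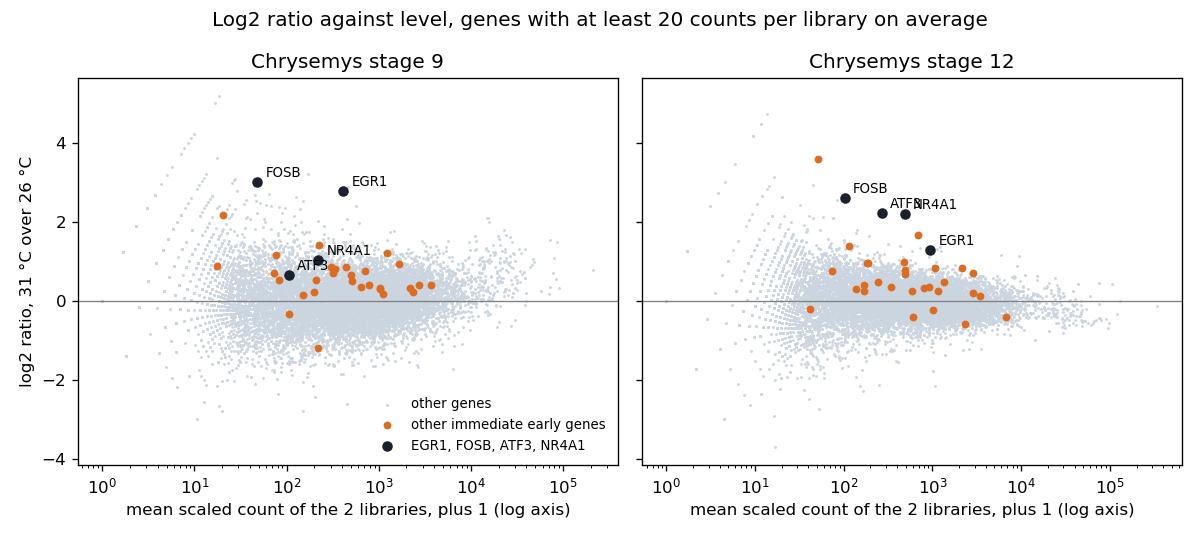
Log2 ratio, 31 °C over 26 °C, against the mean scaled count plus 1 of the 2 libraries (log axis) for 11711 Chrysemys genes at stages 9 and 12. Black points are EGR1, FOSB, ATF3 and NR4A1, orange points 29 other immediate early genes and grey points the remaining genes. At stage 12 the 4 black points lie at the upper edge of the cloud for their level, and 24 of the 29 orange points lie above the median of all genes.

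Other genes among those 20 have well-known roles. ZFP36, an immediate early gene whose product brings about the decay of mRNAs, had 325 scaled counts at 26 °C and 1037 at 31 °C (ratio 3.19, interval 2.66 to 3.85, adjusted p = 1.8e-43 by Fisher's exact test with Benjamini-Hochberg adjustment). SERPINH1, the collagen chaperone HSP47, had 3672 and 8206, and HSP90AA1, the inducible HSP90, had 5902 and 12916. HSP90AA1 and the next gene were named after their values were seen. F3, tissue factor, was also called higher at stage 9, as was SERPINH1. Those 20 also include MYL7, a myosin light chain (411 and 1037 scaled counts), and TPM4, a tropomyosin (234 and 615). Both were named after their values were seen, and the part of tissue make-up was not tested.

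A list of other immediate early genes holds 43 symbols, of which 32 were found in the Chrysemys table and 30 in that of Apalone. With a mean of at least 20 counts per library, 29 remained in Chrysemys and 21 in Apalone. In Chrysemys 27 of 29 lay above the median log2 ratio of all genes at stage 9, 24 at stage 12, 16 at stages 15 and 19, and 18 at stage 22. These counts are the same with library totals except at stage 22, where 19 do. The median log2 ratio of the list was 0.52 at stage 9 and 0.40 at stage 12, against 0.06 and 0.00 for all genes, and 0.11, 0.10 and 0.39 at stages 15, 19 and 22, against 0.03, 0.02 and 0.04. The stage 19 median of the list had the other sign with library totals (-0.19) and with TMM factors (-0.01).

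In Apalone the list lay close to or below the median of all genes. Of 21 genes, 8, 12, 7, 10 and 10 lay above it from stage 9 to stage 22. The list's median log2 ratio was -0.13, 0.11, -0.23, -0.08 and -0.07 at the 5 stages, and the stage 19 value had the other sign with library totals (0.03). Whether the species differ was not tested.

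In Chrysemys the list had 7 calls higher at 31 °C and 1 lower over the 5 stages, which is 5.1% of 157 tests against 3.75% of the tests of all genes. In Apalone 1 was higher and 1 lower, or 1.37% of 146 against 1.24%, so in both species the share called was near that of all genes. DUSP1, a phosphatase that shuts off MAP kinases, had 122 scaled counts at 26 °C and 325 at 31 °C at Chrysemys stage 9 (ratio 2.65, interval 2.04 to 3.48). CYR61, a secreted matrix protein, had 733 and 1695 at stage 9 (ratio 2.31, interval 2.08 to 2.58) and 672 and 1397 at stage 22 (ratio 2.08, interval 1.80 to 2.41). MYC, a growth-promoting transcription factor, had 496 and 1130 at stage 22.

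JUND, an AP-1 subunit, was called higher at Chrysemys stage 19, with 407 scaled counts at 26 °C and 1495 at 31 °C, and ZFP36 also, with 370 and 803. FOSL2, the relative of FOSB, was the one called lower, at stage 9, with 303 at 26 °C and 133 at 31 °C (ratio 0.438, interval 0.340 to 0.562). At stage 12 its ratio was 2.62 (interval 1.71 to 4.14) without a call, so it went the other way there. In Apalone the calls were KLF10, a TGF-beta early response gene, which had 169 and 425 at stage 9, and SGK1, a kinase induced by steroids and serum, which had 4643 and 1814 at stage 15.

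**Figure D5:**
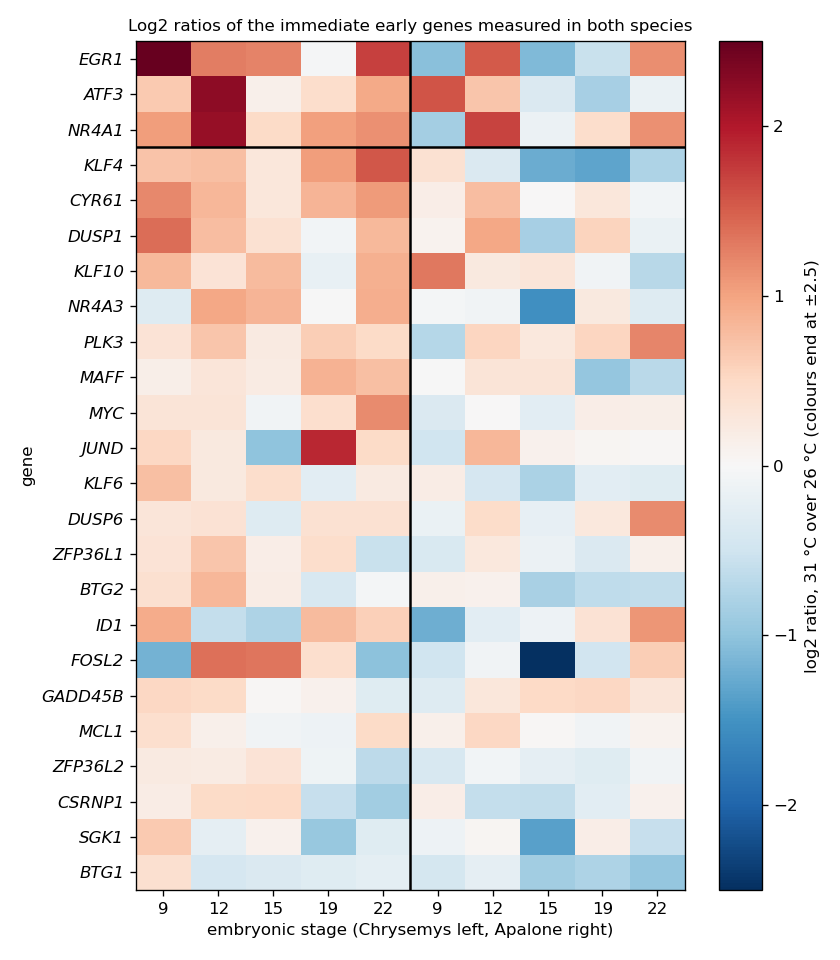
Log2 ratios, 31 °C over 26 °C, of EGR1, ATF3 and NR4A1 (top 3 lines) and of the 21 other immediate early genes with a mean of at least 20 counts per library in both species, ordered by their mean ratio in Chrysemys. Columns are stages, Chrysemys on the left and Apalone on the right, red is higher at 31 °C and blue lower, and colours end at ±2.5. Red prevails at Chrysemys stages 9 and 12, while Apalone shows both colours.

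The closest relatives had varied courses. JUNB, another AP-1 subunit, had a ratio of 1.81 at Chrysemys stage 9 (interval 1.47 to 2.24) and 1.96 at stage 12 (1.62 to 2.39), under the 2-fold minimum. NR4A3, the relative of NR4A1, had one of 0.794 at stage 9 (interval 0.561 to 1.12) and 1.96 at stage 12 (1.44 to 2.72). EGR2 had 0 to 22 counts per Chrysemys library and 0 to 8 in Apalone, too few for a ratio that says much.

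EGR4, a further EGR gene, was named after its values were seen and was found only in the Chrysemys table. It had 6 counts at 26 °C and 134 at 31 °C at stage 12 (ratio 13.6, interval 4.46 to 67.7, adjusted p = 9.6e-10 by Fisher's exact test with Benjamini-Hochberg adjustment, which misses the threshold), and 8 and 48 at stage 9. It was at 0 in all 4 libraries of stages 15 and 22. FOS, JUN, EGR3, NR4A2, NAB1 and NAB2 were not analysed here.

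Other lists bear on the routes that lead to these genes. Of the kinases and factors of the ERK and serum response factor route, 12 of 23 were measured, and 0 were called at stages 9 and 12 in Chrysemys. The median log2 ratio of this list was -0.18 at Chrysemys stage 9 and 0.07 at stage 12. Of the integrated stress response, 9 of 14 genes were measured, with 0 called at Chrysemys stages 9, 12 and 15. Of all genes, 0.146% to 2.09% were called higher and 0.262% to 1.29% lower at those stages, so 0 calls in lists as short as these say little. ATF4, which acts upstream of ATF3, was called higher at Chrysemys stage 22 and lower at Apalone stage 15. At Chrysemys stage 12, where the ATF3 ratio was 4.74, that of ATF4 was 0.791 (interval 0.765 to 0.817), so the 2 genes went opposite ways there. The ATF4 ratio was 1.64 at Chrysemys stage 9, 1.25 at stage 15 and 1.98 at stage 19. The part of ATF4 in the ATF3 ratios was not tested. CEBPB, a transcription factor, was called higher at Chrysemys stage 19, and SESN2, a stress-induced brake on growth signalling, lower at stage 22, where ATF4 was higher. These 3 were named after their values were seen.

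Heat shock genes had more calls higher than lower at 31 °C in both species, though in Apalone the calls came from SERPINH1 and HSPB1 alone. Of 18 measured out of 24, the calls at 31 °C were 2, 2, 1, 3 and 3 higher at the 5 Chrysemys stages and 1, 1, 1, 1 and 2 in Apalone, with 0 lower. Of all genes, 0.146% to 4.09% were called higher by stage in Chrysemys and 0.0171% to 1.38% in Apalone. SERPINH1 was called higher at all 5 stages in each species. At Apalone stage 22 only 6 of the 18 had a log2 ratio above 0 (median -0.14), against 14 to 17 at the earlier Apalone stages. The 18 include CIRBP, the cold-inducible RNA-binding protein, which is not a heat shock protein and counts among those above 0 at every stage. Its log2 ratio ran from 0.25 to 0.998 in Chrysemys and from 0.23 to 0.95 in Apalone, without a call. HSP90AA1 was called at Chrysemys stage 12 alone because of the 2-fold minimum. Its ratios at stages 9, 15, 19 and 22 were 1.66, 1.78, 1.41 and 1.54.

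Temperature is repeated only over stages, and edgeR's quasi-likelihood test with the stage as a block and Benjamini-Hochberg adjustment looked for shifts shared by the 5. It called 0.0156% of 12827 genes higher and 0% lower in Chrysemys, which is 2 genes, where DESeq2 called 47. In Apalone it called 0.00939% of 10644 genes higher and 0.0188% lower, which is 3 genes, where DESeq2 called 261. SERPINH1 was called in both species, with a log2 fold change of 1.40 (SE 0.18, adjusted p = 0.042) in Chrysemys and 1.39 (SE 0.13, adjusted p = 0.016) in Apalone. With any 1 stage left out the Chrysemys call was lost (adjusted p of 0.092 to 0.78, log2 fold changes of 1.31 to 1.45), and in Apalone it held in 2 of 5 cases. SERPINH1 was the only gene of any list to be called by edgeR in this test of temperature.

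No other immediate early gene was called by this test. In Chrysemys 0 of the 30 tested passed, and DESeq2 called CYR61 alone. An unadjusted p under 0.05 was found for 8 of the 30, against 809 of all 12827 genes (6.31%). In Apalone 0 of 27 passed, and DESeq2 called BTG1, a brake on cell division, as lower. There 4 of the 27 had an unadjusted p under 0.05, against 1651 of all 10644 genes (15.5%). The list's median log2 fold change was 0.29 in Chrysemys, with 25 of 30 above 0, and -0.18 in Apalone, with 9 of 27 above 0, against 0.01 and 0.03 for all genes.

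The same fit gave, for description, a log2 fold change over stages in Chrysemys of 1.37 (SE 0.33) for EGR1, 1.80 (SE 0.50) for FOSB, 0.85 (SE 0.33) for ATF3 and 1.16 (SE 0.27) for NR4A1. With 1 stage left out in turn these ran from 1.03 to 1.73, 1.41 to 2.15, 0.50 to 1.04 and 0.89 to 1.32. In Apalone they were 0.01 (SE 0.41) for EGR1, 0.18 (SE 0.41) for ATF3 and 0.51 (SE 0.37) for NR4A1, and for EGR1 and ATF3 the error is larger than the value. With 1 stage left out these ran from -0.39 to 0.29, -0.22 to 0.49 and 0.19 to 0.80, so that EGR1 fell below 0 without stage 12 or 22 and ATF3 without stage 9. FOSB did not pass the filter on low counts there.

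Gonads of stages 19 and 22 were compared with the AKG of stages 12 and 15, with temperature as a covariate. In Chrysemys, kidney markers summed to 13639 to 24757 scaled counts in the gonad libraries and to 1263 to 5585 in the AKG libraries. Gonad markers summed to 1569 and 964 in the warm gonads against 2581 and 2663 in the warm AKG. In the cool libraries they summed to 6299.5 and 34928 against 2003 and 1904.5. SOX9 made up most of the warm AKG sums, with 2298 and 2557 scaled counts, and had 872 and 567 in the warm gonads. Every other gonad marker was higher in the warm stage 19 gonads than in either warm AKG. At stage 22 GATA4 and LHX9 lay below the warm stage 12 AKG, and NR5A1, AMH, DMRT1 and FOXL2 above both warm AKG. The part of tissue make-up in the differences below was not tested. In Chrysemys edgeR called 17.8% of genes higher in gonads and 16% lower, and in Apalone 0.78% and 0.301%. The 4335 calls in Chrysemys became 2250, 2822 and 2401 without stages 12, 15 and 19, and the 115 in Apalone became 6, 1503, 24 and 52 without stages 12, 15, 19 and 22. Among other immediate early genes 2 were higher and 3 lower in Chrysemys gonads. SGK1 had a log2 fold change of 1.47 (SE 0.34) and ZFP36L1, another promoter of mRNA decay, of 0.82 (SE 0.24). NR4A3 had one of -1.68 (SE 0.33), DUSP6, a phosphatase specific to ERK, of -1.30 (SE 0.23) and CYR61 of -0.88 (SE 0.20). In Apalone 0 of 27 passed, 3 had an unadjusted p under 0.05 against 16.1% of all genes, and DESeq2 called FOSL2 higher and JUND lower.

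The 4 genes had fitted differences of gonad over AKG in Chrysemys of 0.08 (SE 0.45) for EGR1, -1.97 (SE 0.72) for FOSB, -0.50 (SE 0.43) for ATF3 and -0.20 (SE 0.38) for NR4A1. With 1 stage left out in turn they ran from -0.48 to 1.02, -2.68 to -0.18, -0.98 to 0.31 and -0.68 to 0.59. The highest value of each was that without stage 12 and the lowest that without stage 15, so for EGR1, ATF3 and NR4A1 the sign depends on the stages included. In Apalone ATF3 had 2.07 (SE 0.46), EGR1 0.19 (SE 0.44) and NR4A1 0.41 (SE 0.45). The last 2 took the other sign without stage 22, at -0.0012 and -0.20. The ATF3 difference was between 1.84 and 2.33 with 1 stage left out, and its 4 gonad libraries (37.1 to 70.1 scaled counts) lay above its 4 AKG libraries (7.70 to 14.2).

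Some libraries held markers of tissue outside their label. Of the skeletal muscle markers 6 of 7 were measured, and their summed scaled counts in Chrysemys gonads were 341 in the cool and 14782 in the warm library of stage 19, and 699 and 23299 in those of stage 22. In Apalone the sum at stage 22 was 2658 at 26 °C and 75072 at 31 °C, and at stage 15 1447 and 3636. At Chrysemys stages 9 and 12 the sums were 1797 and 9381 at 26 °C against 2748 and 6566 at 31 °C.

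Counted over the stages at which the muscle sum of the warm library was less than 2 times that of the cool one, the 4 genes had higher levels at 31 °C in 12 of 12 Chrysemys comparisons (stages 9, 12 and 15), 8 of them at least 2-fold. In Apalone (stages 9, 12 and 19) it was 5 of 9, with 3 at least 2-fold higher. The only Chrysemys ratio below 1, that of EGR1 at stage 19, lies outside these stages, so the count follows from the one over all stages. The 4 genes also share the same 2 libraries at each stage. This choice of stages was made after the data were seen, and muscle markers still differed within it. Their median log2 ratio was 0.82, -0.57 and 0.44 at the 3 Chrysemys stages and -0.27, 0.44 and -1.37 at the 3 of Apalone, and TNNC2, a muscle troponin, was called higher at Chrysemys stage 9 and Apalone stage 12, and ACTA1, muscle actin, lower at Chrysemys stage 15. The part of muscle in the ratios was not tested at any stage.

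Kidney markers, 4 of 6 measured, summed to 18238 and 24757 scaled counts in Chrysemys stage 22 gonads at 26 °C and 31 °C, and gonad markers, 7 of 7 measured, to 34928 and 964. AMH, made by Sertoli cells, had 29836 scaled counts in the cool and 25.1 in the warm library of that stage, and FOXL2, an ovarian factor, 7.52 and 104.6. In Apalone AMH had 0 in the cool and 213 in the warm library of stage 22, and FOXL2 300 and 88.9. At Apalone stage 19 AMH had 353 and 126, and FOXL2 79.7 and 42.6. The part of the sexes of the pooled Apalone embryos in the ratios was not tested. Of 5 adrenal markers 0 were measured. Endothelial markers (3 of 7 measured) summed to 926 and 921 at Chrysemys stage 12, leukocyte markers (4 of 5) to 457 and 412, and SLC4A1, the only erythroid marker measured of 7, had 515 and 532. Within the endothelial sum, PECAM1 had a log2 ratio of 1.05, TEK one of -0.07 and EGFL7 one of -0.30.

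At other stages these markers differed more. SLC4A1 had 1425 and 4057 scaled counts at Chrysemys stage 19, 1043 and 2795 at stage 22, and 37.2 and 196 at Apalone stage 22, and was called higher at 31 °C each time. Leukocyte markers summed to 161 and 532 at Apalone stage 22. Kidney markers summed to 1590 and 711 at Chrysemys stage 9 and to 2642 and 5585 at stage 15, and to 880 and 1674 at Apalone stage 12. Red cell, white cell and muscle markers were thus all higher in the warm Apalone library of stage 22, where EGR1 and NR4A1 were also higher, and their part in the ratios was not tested.

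The genes whose level most resembled each of the 4 over all 20 libraries were sought among 5629 genes with a symbol and a mean of at least 20 counts per library in each species, on log2 levels centred within species. EGR1 and NR4A1 were each other's closest, with a Pearson's r of 0.81. EGR1 was followed by DUSP1 (0.76) and MXI1 (0.71), and NR4A1 by CAMK2B (0.76) and RBKS (0.69). ATF3 was most like FOXL2 (0.69), BCAS1 (0.68) and VAMP7 (0.67), each with an r of 0.80 to 0.84 in Apalone and of 0.08 to 0.48 in Chrysemys. FOSB, whose values rest on Chrysemys, was most like CYR61 (0.78), TFG (0.73) and TPD52L2 (0.72).

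On the 10 ratios of 31 °C over 26 °C, the genes most like the mean of the 4 were CSNK2A2 and CFAP221 (r of 0.86 each), MXI1 (0.85), RTN4IP1 (0.84) and HACE1 (0.83), out of 5626. On the log2 scale the ratios of CSNK2A2 ran from -0.71 to 0.16 and those of CFAP221 from -1.20 to 0.47. The mean of the 4 includes FOSB, which was close to undetected in Apalone. The libraries share scaling factors, and the values are descriptions.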

How the data were processed

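Values are raw read counts per gene as deposited by the authors. According to the methods, the authors mapped assembled transcripts to annotated Chrysemys genes, mapped the reads of both species back to these genes with GSNAP, and counted them with HTSeq without regard to strand, so antisense reads are included. Trimmomatic 0.27 is named in the submitters' notes. All deposited counts are even, as if a read pair counted as 2, and Fisher's test and the intervals use counts halved, except in edgeR and DESeq2. Of 13942 entries, 6875 received a symbol.

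Within each species the libraries were scaled to an equal upper quartile, the 75th percentile over genes with a count. Log2 ratios are of scaled counts plus 1, which understates changes of low genes. Folds and their intervals use no added count. Fisher's test took each gene against the rest of the library. edgeR 4.0.16 used TMM and its filter on low counts, and DESeq2 1.42.0 was an alternative, in R 4.3.3. Python 3.11.15, numpy 2.4.6, pandas 2.3.3, scipy 1.17.1 and matplotlib 3.10.9 did the rest. Fisher's test was tried on simulated counts with counting error only, and edgeR's test on simulated counts with an assumed spread between libraries. These trials cannot show how either test fares with the spread between pools, which was not measured here.

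The members and the lists were chosen with earlier results of these data known. Named genes are the 4 members, list genes called by edgeR over stages, up to 3 called immediate early genes per species and stage, close relatives, and the most alike genes. Counts of genes with a mean of at least 20 counts per library describe lists. Alternatives were other scalings, DESeq2, other filters, added counts of 0.5 and 10, and each stage left out. Replicates are lacking, so p-values of Fisher's test cover counting error only. A result for 1 listed gene is not reported here.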

Additional observations from a re-analysis of the deposited data

How the results depend on the processing

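No member ratio changed sign under the 5 alternative scalings and added counts, and 173 of 175 values stayed within the counting interval. With library totals the log2 ratio of EGR1 in Chrysemys was -0.34 at stage 19 and 1.35 at stage 22. The 12 Chrysemys ratios at least 2-fold higher became 9 with library totals. They became 10 with TMM factors, with DESeq2 size factors or with an added count of 10. Keeping the 3 stages whose warm muscle sum was under 2 times the cool one left 12 Chrysemys ratios above 1 of 19, 8 at least 2-fold of 12, and in Apalone 3 at least 2-fold of 5. The calls summed over stages were 2566 in Chrysemys and 734 in Apalone, and 8766 and 2307 with no fold minimum, with 31 and 12 in place of 8 and 2 for other immediate early genes. With each read counted instead of each pair, Apalone had 1360 calls, 4 of them in the list. The shared temperature shift was called for 2 Chrysemys genes: 0 with upper-quartile scaling or no stage block, 47 with DESeq2 (1 in the list) and 0 to 1 with a stage left out. For Apalone 3 became 8 without a filter, 5 with read pairs, 0 without the block, 261 with DESeq2 (1 in the list) and 0 to 4 with a stage left out. Gonad against AKG gave 4335 calls in Chrysemys (2250 to 3235 with a stage left out) and 115 in Apalone (6 to 1503, and 0 to 5 in the list, and 732 with DESeq2, 2 in the list), so the latter count depends on single stages. Of the 3 genes most like FOSB and ATF3, 0 and 1 stayed with Spearman's rho. Depth limits FOSB, with 6 to 24 counts in 8 of the 10 Chrysemys libraries, and all genes of Apalone.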
